A study of Mus musculus with 16 samples.

Results

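The Aldh1 family was followed through the kidney cortex of mice that lacked Vhl, Pbrm1 or both in the tubule epithelium. The 7 genes, Aldh1a1, Aldh1a2, Aldh1a3, Aldh1a7, Aldh1b1, Aldh1l1 and Aldh1l2, were chosen by family membership from 22180 genes with a value, and 7 of 7 were measured. The probe set with the highest mean over the 16 arrays was to stand for each gene, but each had a single probe set, so no level entered the choice. The rise of Aldh1a7 in Pbrm1 mutants was known when the family was chosen, and its values in those arrays are therefore described without a test. Total RNA from whole cortex was hybridised to Affymetrix arrays, 4 for each of 4 genotypes. Control mice were wild type and of the strain C57BL/6. The mutants were Vhl F/F Ksp-Cre, Pbrm1 F/F Ksp-Cre and the double mutant Vhl F/F Pbrm1 F/F Ksp-Cre, all on a mix of C57BL/6, BALB/c and 129. All mice were 3 months old and on a normal diet. Ksp-Cre is driven by the Cdh16 promoter, which is active in tubule epithelium, so vessels, stroma and immune cells of the cortex keep both genes. Genotype cannot be told apart from strain in any comparison with wild type, whereas the 3 mutant groups share a strain label. Whether each array stands for its own animal is not stated, and the p-values then reflect array-to-array spread that may in part be technical.

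Enzymes of the Aldh1 family oxidise aldehydes to carboxylic acids with NAD(P)+ as acceptor. Aldh1a1, Aldh1a2 and Aldh1a3 are retinaldehyde dehydrogenases, which make retinoic acid, the ligand of the nuclear retinoic acid receptors, from retinal. Retinal itself comes from retinol through retinol dehydrogenases, and retinoic acid is removed by the Cyp26 enzymes. Aldh1a7 is a rodent paralog of Aldh1a1 with aldehyde dehydrogenase activity but little or none towards retinal, and Aldh1b1 is a mitochondrial enzyme that uses acetaldehyde. Aldh1l1 in the cytosol and Aldh1l2 in mitochondria oxidise 10-formyltetrahydrofolate to carbon dioxide and tetrahydrofolate and so belong to folate one-carbon metabolism. In embryonic kidney, retinoic acid made by stromal cells acts on Ret in the ureteric bud, and adult tubules express several members of the family.

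Aldh1a7, Aldh1a1, Aldh1a2 and, by less, Aldh1l2 varied most between genotypes. The 4 group means spanned 2.11 log2 units for Aldh1a1, 1.06 for Aldh1a2 and 0.57 for Aldh1l2, at percentiles of 99.8, 98.4 and 92.5 among all genes. The span of Aldh1a7, 2.27, is its known rise from wild type to Pbrm1 mutants and is therefore given without a rank. Aldh1l1, Aldh1b1 and Aldh1a3, with spans of 0.24, 0.23 and 0.20, lay at percentiles of 54.4, 52.3 and 41.4. A gene was called at a limma p, adjusted over all 22180 genes by the Benjamini-Hochberg method, under 0.05. Against wild type, 2 of the 7 members were called in Vhl mutants, where 3.84% of all genes were called. In Pbrm1 mutants, 2 of the 6 members other than Aldh1a7 were called, where 4.04% of all genes were. In double mutants 3 members were called, or 2 of the 6 other than Aldh1a7, where 12.2% of all genes were. The median difference of the 7 members from wild type was 0.085 for Vhl, -0.088 for Pbrm1 and 0.41 for double mutants, beside -0.0089, -0.0052 and -0.021 over all genes. Among the mutants, and again without Aldh1a7, 3 of 6 members were called between double and Pbrm1 mutants (10.2% of all genes) and 2 between Pbrm1 and Vhl mutants (7.47%). Between double and Vhl mutants limma called 0 members (6.35% of all genes), with 1 at an unadjusted p under 0.05. In the interaction, the difference between the double mutant effect and both single effects added together, 1 of those 6, Aldh1a1, was called (2.63% of all genes). Wild-type arrays enter the interaction, so genotype and strain cannot be told apart there either.

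**Figure D1:**
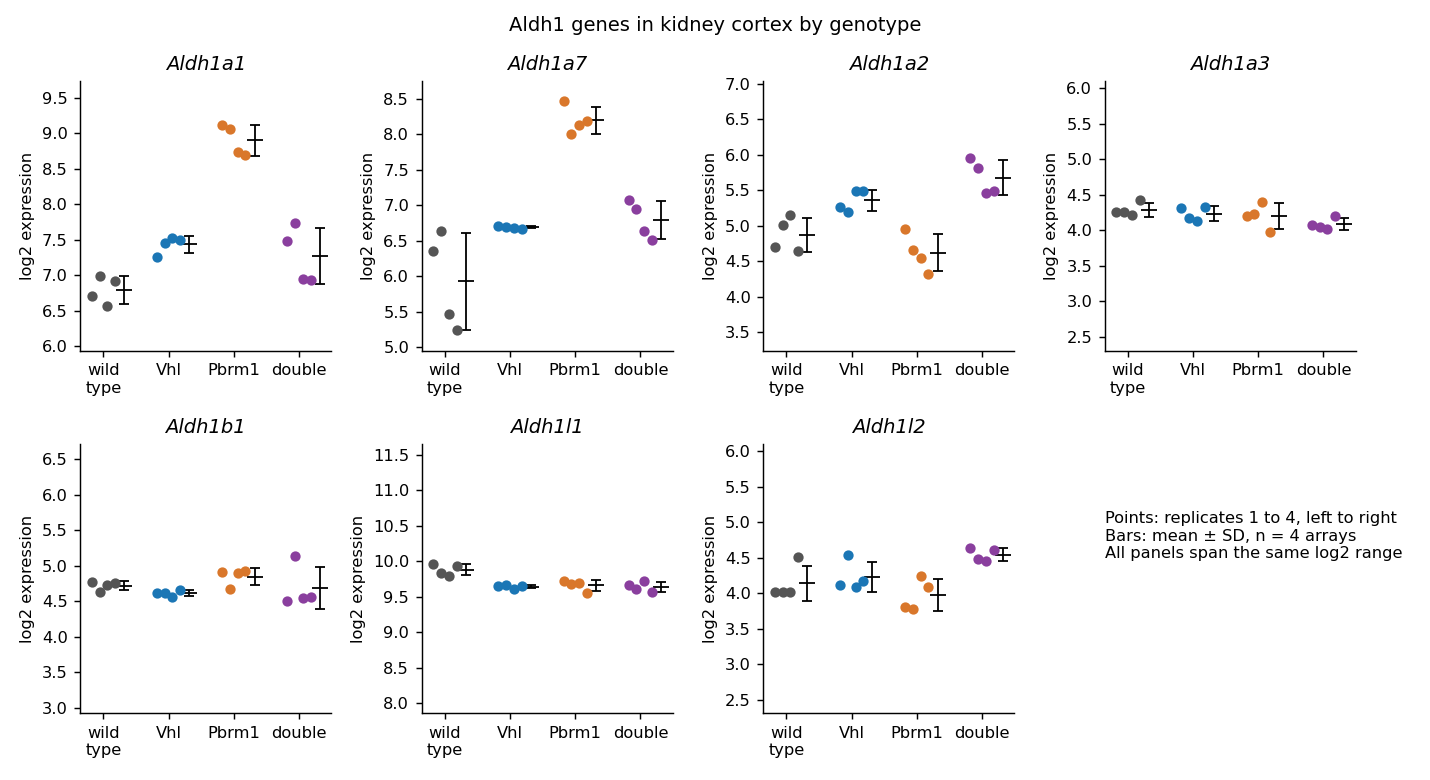
Deposited log2 expression (y axis) of each of the 7 Aldh1 genes in 16 arrays, by genotype (x axis). Points are replicates 1 to 4 from left to right, bars are mean ± SD (n = 4 arrays), and every panel spans the same range of log2 units around its own centre. Aldh1a1 and Aldh1a7 stand far above the other groups in Pbrm1 mutants, with means of 8.90 and 8.19, and Aldh1a2 is lowest there, with a mean of 4.62.

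Values are on the deposited log2 scale after robust multi-array averaging (RMA). The median gene lay between 5.18 and 5.27 and the lower quartile between 3.60 and 3.72 in each array; each of the 7 members lay above 3.72 in all 16 arrays. With 4 arrays a group, precision is limited by their number. The cortex label was borne out by Lrp2 and Slc34a1 of the proximal tubule, at 12.1 to 12.3 and 12.6 to 13.0 on the log2 scale. The deleted genes did not separate the groups: the Vhl probe set lay between 6.08 and 6.55 and that of Pbrm1 between 8.02 and 8.33 over the 16 arrays, and limma called neither in any comparison. Whether these probe sets lie in the deleted parts is not known here, so they do not check the labels. Arrays carry a number in their descriptions, 2 numbers per group, of unstated meaning. Double mutant replicate 3 carries the same label as replicate 2, but its values were more like those of replicate 4. Deviations of 4 unrelated arrays from their mean correlate at about -0.33 by construction. In the other 3 groups, arrays of 1 number correlated at -0.20 to -0.10 and arrays of different numbers at -0.51 to -0.30. Double mutant replicate 3 correlated at -0.51 with replicates 1 and 2 and at -0.07 with replicate 4.

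Aldh1a1 and Aldh1a7 lie near each other on chromosome 19, on opposite strands, with 3 annotated genes between them in RefSeq (GRCm38.p6). The 250 bases before their RefSeq starts are printed because both genes moved together: chr19:20601718-20601967 on the plus strand for Aldh1a1 (the downstream of its 2 RefSeq starts) and chr19:20727557-20727806 on the minus strand for Aldh1a7. Both are written 5′ to 3′ along the gene, and capitals mark the longest run that is identical in both.
Aldh1a1: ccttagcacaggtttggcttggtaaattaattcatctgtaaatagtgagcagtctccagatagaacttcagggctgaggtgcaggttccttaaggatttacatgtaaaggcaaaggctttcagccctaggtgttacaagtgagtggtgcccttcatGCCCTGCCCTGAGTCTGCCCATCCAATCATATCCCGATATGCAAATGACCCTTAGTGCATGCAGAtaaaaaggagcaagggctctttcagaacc
Aldh1a7: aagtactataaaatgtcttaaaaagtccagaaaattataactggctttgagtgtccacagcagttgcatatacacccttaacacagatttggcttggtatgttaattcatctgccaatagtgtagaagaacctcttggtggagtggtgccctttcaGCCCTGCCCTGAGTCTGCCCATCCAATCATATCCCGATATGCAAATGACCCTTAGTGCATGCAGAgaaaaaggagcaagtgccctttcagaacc
The shared run is 65 bases long and lies 94 to 30 bases before the start in both genes. Of the 100 bases nearest the start, 94 were identical, and the 6 differences were C97T, A96C, T95A, T29G, G15T and T12C (Aldh1a1 base, position in bases before the start, Aldh1a7 base). By the same count, the Aldh1a1 stretch shared 29 of 100 bases with its own upstream start, 20 with Aldh1a2, 32 with Aldh1b1 and 27 with Aldh1l1. The shared run holds CCAAT and ATGCAAAT. Searched on both strands of the same 250 bases, CCAAT was found in 33.8% of 32851 mouse promoters and ATGCAAAT in 1.60%. CCAAT occurred 1 time in the Aldh1a1 stretch, 2 times in that of Aldh1a7, 2 times in that of Aldh1l1 and 1 time in that of Aldh1a2. A match describes letters only and names no bound factor.

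Aldh1a1 was higher in Pbrm1 mutants than in every other group. Its log2 values were 6.70, 6.99, 6.56 and 6.92 in wild-type replicates 1 to 4, and 9.11, 9.06, 8.74 and 8.69 in Pbrm1 mutants. In Vhl mutants they were 7.25, 7.46, 7.52 and 7.50, and in double mutants 7.48, 7.73, 6.95 and 6.93. The 4 Pbrm1 mutant arrays were the highest of the 16 with no overlap, while double mutants overlapped both wild type and Vhl mutants. The mean was 6.79 ± 0.20 (SD, n = 4) in wild type and 8.90 ± 0.22 in Pbrm1 mutants, a 4.31-fold rise (log2 difference 2.11 ± 0.16 SE, adjusted p = 4.86e-08). Against Vhl mutants (7.43 ± 0.13), which share the strain label, Pbrm1 mutants were 2.76-fold higher (1.47 ± 0.16, adjusted p = 3.14e-06).

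Aldh1a1 was lower again where Vhl was deleted as well as Pbrm1. Double mutants (7.27 ± 0.40) were 3.12-fold below Pbrm1 mutants, a log2 difference of -1.64 ± 0.16 (adjusted p = 4.45e-07), and lower in 4 of 4 arrays. The interaction was -2.28 ± 0.22 (adjusted p = 5.84e-06). It includes the wild-type arrays, so strain cannot be told apart from genotype in it. Double mutants minus Vhl mutants gave -0.18, with a 95% interval of -0.51 to 0.16. Vhl mutants were 1.56-fold above wild type (0.64 ± 0.16, adjusted p = 0.0247, no overlap of arrays). That call was lost without wild-type replicate 1 (adjusted p = 0.0735) or 3 (0.0687), or without Vhl mutant replicate 2 (0.0519), 3 (0.069) or 4 (0.0544). Double mutants differed from wild type by 0.47 ± 0.16, which was not called (adjusted p = 0.0627) but was without double mutant replicate 3 (0.0197) or 4 (0.0255), the lower arrays of the group.

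**Figure D2:**
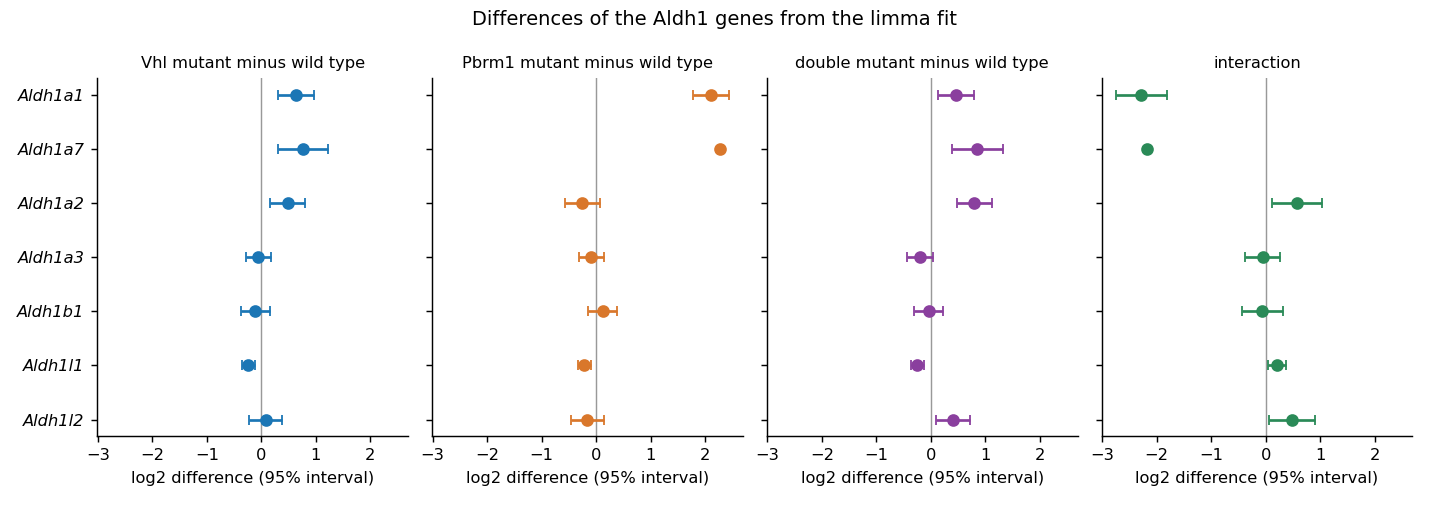
Log2 differences of the 7 Aldh1 genes from the limma fit (x axis, points) with 95% intervals (bars), for each mutant group against wild type and for the interaction. Aldh1a7 has no interval in Pbrm1 mutants and the interaction, where it is described without a test. Aldh1a1 and Aldh1a7 lie together at 2.11 and 2.27 in Pbrm1 mutants and at -2.28 and -2.18 in the interaction, while Aldh1a2 is at 0.80 in double mutants.

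Aldh1a7 had the widest range of the family. Its log2 values were 6.36, 6.64, 5.47 and 5.24 in wild-type replicates 1 to 4, and 8.46, 8.005, 8.12 and 8.19 in Pbrm1 mutants. They were 6.70, 6.69, 6.68 and 6.67 in Vhl mutants and 7.08, 6.95, 6.64 and 6.50 in double mutants. The Pbrm1 mutant arrays were again the 4 highest, and wild-type replicates 3 and 4 were the lowest of the 16. The Pbrm1 mutant mean of 8.19 ± 0.19 (SD, n = 4) lay 4.82-fold above the wild-type mean of 5.93 ± 0.68, 2.84-fold above that of Vhl mutants (6.69 ± 0.014) and 2.67-fold above that of double mutants (6.79 ± 0.27). The interaction was -2.18 on the log2 scale. These values are a description, since the rise in Pbrm1 mutants was known beforehand.

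Without Pbrm1 arrays, the differences of Aldh1a7 were smaller and rested on the wild-type arrays, which also enter the known rise. Double mutants were 1.81-fold above wild type (0.85 ± 0.22, adjusted p = 0.0135), although the groups overlapped. With arrays averaged per description number this difference was 0.77 and not called (adjusted p = 0.122). Without double mutant replicates 1 to 3 it was 0.58. Vhl mutants differed from wild type by 0.76 ± 0.22 (adjusted p = 0.0576), with no overlap. The wild-type arrays fell apart by description number, with a mean of 6.50 for replicates 1 and 2 and of 5.35 for replicates 3 and 4. Without replicates 3 and 4 the double mutant difference was 0.28 (adjusted p = 0.327), and without replicates 1 and 2 the Vhl mutant difference was 1.34 (adjusted p = 0.000135). The Vhl mutant difference was also called without wild-type replicate 1 (adjusted p = 0.0473) or 2 (0.00905) alone. Between double and Vhl mutants the difference was 0.09, with a 95% interval of -0.37 to 0.55.

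**Figure D3:**
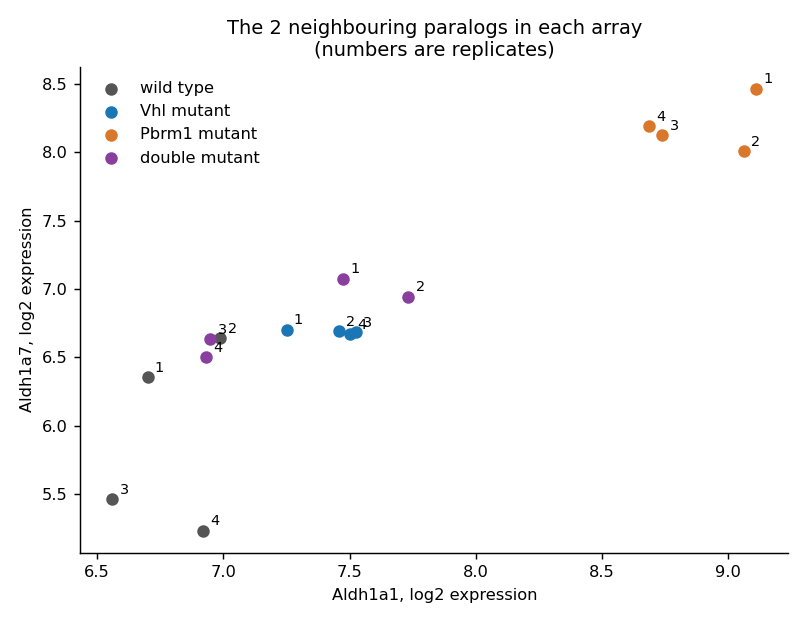
Log2 expression of Aldh1a1 (x axis) against Aldh1a7 (y axis) in each of 16 arrays, coloured by genotype and numbered by replicate. The 4 Pbrm1 mutant arrays sit apart at upper right, and wild-type replicates 3 and 4 are low for Aldh1a7 (5.47 and 5.24) at Aldh1a1 values of 6.56 and 6.92.

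Of all 22179 other genes, Aldh1a7 had the profile nearest to that of Aldh1a1 and the reverse also held. Likeness was taken as the root mean square difference of log2 values over 16 arrays, each gene centred on its own mean, and was 0.35 for this pair. The Pbrm1 mutant arrays, where the rise of Aldh1a7 was known beforehand, enter this measure, so the ranks are a description only. Probe sequences were not used here, so how far each probe set also measures the other paralog was not tested. In wild type the pair came apart: between the 2 description numbers the mean of Aldh1a7 went from 6.50 to 5.35 and that of Aldh1a1 from 6.84 to 6.74. Next after Aldh1a1, the genes nearest to Aldh1a7 were Npy6r, a neuropeptide Y receptor (0.48), Slc10a2, the apical sodium-dependent bile acid transporter (0.52), Slc16a14, a member of the monocarboxylate transporter family (0.54), and Fcamr, an Fc receptor for IgA and IgM (0.55). Npy6r was also the second nearest to Aldh1a1 (0.43), followed by the cytochrome P450 gene Cyp2d12 (0.48).

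These neighbours in profile did not all behave alike. Slc10a2 had group means of 7.89 in wild type beside 8.08 (Vhl), 9.38 (Pbrm1) and 9.02 (double mutants), so it stayed high in double mutants (1.13 above wild type in the fit), where Aldh1a1 was 0.47 above wild type. Npy6r had means of 3.98, 3.63, 5.69 and 4.24 in the same order and stood 0.25 above wild type in double mutants (adjusted p = 0.405). Neighbours on the chromosome were at background: 1500015L24Rik, E030003E18Rik, C730002L08Rik and Tmc1 had wild-type means of 2.99, 3.22, 3.08 and 3.32, below 3.72, and limma called none of these 4 in any comparison.

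**Figure D4:**
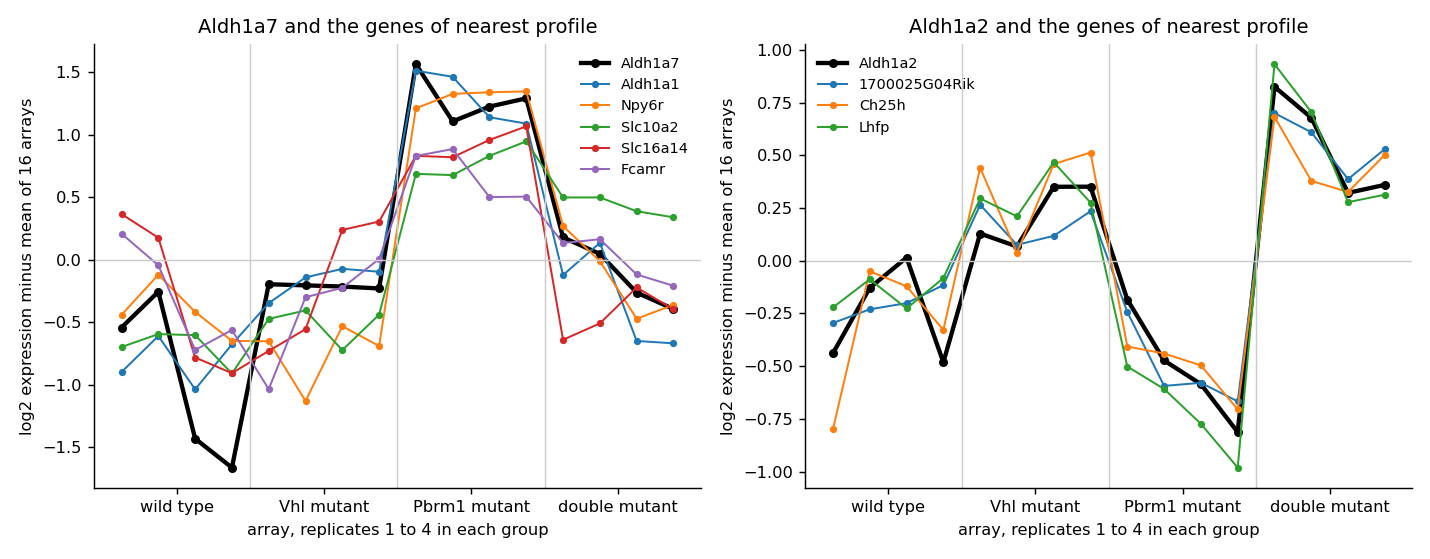
Log2 expression minus the gene's own mean of 16 arrays (y axis) by array, replicates 1 to 4 in each genotype group (x axis), for Aldh1a7 with its 5 nearest genes (left) and Aldh1a2 with its 3 nearest genes (right). Lines only join the points of a gene; the arrays of a group have no order. The left profiles peak in Pbrm1 mutants, whereas the right profiles are lowest there and highest in double mutants. The nearest genes were chosen for likeness over these same arrays, so shared peaks follow from the choice.

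Values of other tissues and of sex-dependent genes stand beside these results. Aldh1a1 is also known from adrenal cortex, which adjoins the kidney. Of 8 adrenal cortex markers, 0 were called by limma in any of the 7 comparisons and 0 had an unadjusted p under 0.05. In every group 5 had means below 3.72. The steroid enzymes Cyp11b1, Cyp21a1 and Hsd3b1 lay at 3.00 to 3.60, 2.90 to 3.37 and 2.34 to 2.95 over the 16 arrays. Sex chromosome genes did not separate the groups: Xist lay between 2.92 and 3.33, and the Y-linked genes Kdm5d, Eif2s3y and Uty between 6.03 and 6.61, 7.05 and 8.01, and 7.19 and 7.59. Of 7 kidney genes that are higher in males, 3 rose in Pbrm1 mutants and 0 fell (4.04% of all genes called). Cyp4a12a rose by 1.28, Kap by 0.22 and Cyp2e1 by 0.18 on the log2 scale. The list median per array was 0.14 to 0.25 above wild type. Vhl mutants had 0 of these 7 higher and 2 lower (3.84%), with medians of -0.32 to -0.15. Between mutant groups of the same strain label, 6 of 7 were higher in Pbrm1 than in Vhl mutants (7.47% of all genes called). In double mutants 4 of 7 were lower than in Pbrm1 mutants (10.2%). Aldh1a1 moved in the same direction in both comparisons. In double against Vhl mutants, 3 of 7 were higher and 0 lower (6.35%), whereas Aldh1a1 differed by -0.18, which was not called. Of 13 proximal tubule markers, 2 are also in the male list. In Pbrm1 mutants 1 rose against wild type (Gatm, by 0.49) and 0 fell (4.04% of all genes called). In double mutants 2 rose and 3 fell against wild type (12.2%), and 1 was higher and 5 lower than in Pbrm1 mutants (10.2%). The list median per array stayed within -0.12 to 0.06 of wild type in all groups. Markers of the collecting duct were also lower in double than in Pbrm1 mutants (10.2%), 4 of 6 for principal cells (list median of the differences -0.42) and 4 of 5 for intercalated cells (-0.51), with 0 higher. Pbrm1 mutants exceeded Vhl mutants in 1 and 2 of them, with 0 lower (7.47%). Against wild type, 4 and 4 fell in double mutants and 0 rose (-0.37 and -0.68, 12.2%), where Aldh1a1 differed by 0.47. In double against Vhl mutants (6.35%), 2 principal cell markers were lower and 0 higher. There 3 intercalated cell markers were lower and 1 higher. The part of these genes in the Aldh1a1 and Aldh1a7 results was not tested.

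Aldh1a2, the main retinaldehyde dehydrogenase of the embryo, was highest in double mutants. Its log2 values were 4.69, 5.002, 5.15 and 4.65 in wild-type replicates 1 to 4 and 5.96, 5.81, 5.45 and 5.49 in double mutants. They were 5.26, 5.20, 5.48 and 5.48 in Vhl mutants and 4.95, 4.66, 4.54 and 4.32 in Pbrm1 mutants. Every Vhl mutant and double mutant array lay above all wild-type and Pbrm1 mutant arrays. Double mutants (5.68 ± 0.25, SD, n = 4) were 1.74-fold above wild type (4.87 ± 0.24), a difference of 0.80 ± 0.16 (adjusted p = 0.00136). They were 2.08-fold above Pbrm1 mutants (4.62 ± 0.26; 1.05 ± 0.16, adjusted p = 8.33e-05). Pbrm1 mutants were 1.67-fold below Vhl mutants (5.36 ± 0.15), by -0.74 ± 0.15 (adjusted p = 0.00365), a call lost without Pbrm1 mutant replicates 3 and 4 (0.106) or Vhl mutant replicates 3 and 4 (0.0741). The double mutant call against wild type was lost without double mutant replicates 1 to 3 (0.146).

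Smaller differences of Aldh1a2 were not called. Vhl mutants were 0.48 ± 0.15 above wild type (adjusted p = 0.0888), a difference that, of 35 alternatives, was called only when wild-type replicate 3, the highest of that group, was left out (0.0486). Pbrm1 mutants differed from wild type by -0.26 (adjusted p = 0.458). Double mutants differed from Vhl mutants by 0.31, with a 95% interval of -0.01 to 0.64 (adjusted p = 0.275), and the interaction was 0.57 (adjusted p = 0.188).

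Median levels of stroma, vessel and macrophage markers were higher in Vhl and double mutants than in wild type and Pbrm1 mutants, as Aldh1a2 was. In bulk cortex, more cells of a type and more RNA per cell cannot be told apart. Of 6 fibroblast and pericyte markers, 3 rose in Vhl mutants, 5 rose in double mutants and 1 fell in Pbrm1 mutants, with list medians per array of 0.36 to 0.74, 0.48 to 0.90 and -0.48 to -0.07 relative to wild type. Dcn, a matrix proteoglycan, rose by 1.13 in double mutants, and Pdgfrb, a pericyte receptor, by 0.72. Of 10 macrophage markers, 8 rose in Vhl mutants, 5 in double mutants and 1 in Pbrm1 mutants, among them Lyz2 (lysozyme) by 1.38 in Vhl mutants and 1.24 in double mutants. Of 6 endothelial markers, 5 rose in Vhl mutants and 3 in double mutants, whereas 2 fell in Pbrm1 mutants. The share of all genes called was 3.84% in Vhl, 4.04% in Pbrm1 and 12.2% in double mutants. In double against Pbrm1 mutants, 5 of 6 fibroblast and pericyte, 7 of 10 macrophage and 4 of 6 endothelial markers were higher (10.2% of all genes called). In Pbrm1 against Vhl mutants, 6 of 6, 9 of 10 and 5 of 6 were lower (7.47%). In double against Vhl mutants (6.35%), where Aldh1a2 differed by 0.31 and was not called, 0 fibroblast and pericyte markers were called. Their list median of the differences was 0.15. There 1 macrophage marker was higher and 2 lower (-0.14), and 0 endothelial markers were higher and 1 lower (-0.099). The part of these cells in the Aldh1a2 result was not tested.

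The genes nearest to Aldh1a2 in profile were 1700025G04Rik (root mean square difference 0.16), Ch25h, the cholesterol 25-hydroxylase (0.18), and Lhfp (0.18). In double mutants they stood 0.77, 0.80 and 0.70 above wild type, beside 0.80 for Aldh1a2. They were chosen for likeness over these same arrays, so this closeness follows from the choice. The 250 bases before the RefSeq start of Aldh1a2, chr9:71215539-71215788 on the plus strand of GRCm38.p6, are printed 5′ to 3′ because Vhl controls hypoxia-inducible factors, whose core motifs are ACGTG and GCGTG. Capitals mark the single match to each, the first as GCGTG and the second as CACGT, the reverse complement of ACGTG.
Aldh1a2: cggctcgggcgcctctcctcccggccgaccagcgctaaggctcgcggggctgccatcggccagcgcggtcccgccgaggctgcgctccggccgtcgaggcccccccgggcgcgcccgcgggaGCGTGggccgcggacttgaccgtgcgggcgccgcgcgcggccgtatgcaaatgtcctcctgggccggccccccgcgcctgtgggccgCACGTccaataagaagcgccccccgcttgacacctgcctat
On both strands, ACGTG was found in 16.6% of 32851 promoters of this length and GCGTG in 28.2%. Neither was found in the 250 bases before either Aldh1a1 start or before those of Aldh1a7, Aldh1b1 and Aldh1l1. ATGCAAAT was present in the Aldh1a2 stretch, as in those of Aldh1a1 and Aldh1a7. Any part of these motifs in expression was not tested. Of the 7 members, 5 had a promoter entry in the RefSeq table; Aldh1a3 and Aldh1l2 had none.

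Limma called neither Aldh1a3 nor Aldh1b1 in any of the 7 comparisons, and 0 of these had an unadjusted p under 0.05. Aldh1a3, the third retinaldehyde dehydrogenase, had log2 values of 4.21 to 4.43 in wild type beside 4.13 to 4.33 (Vhl), 3.97 to 4.40 (Pbrm1) and 4.02 to 4.20 (double mutants). The double mutant arrays lay below the wild-type arrays without overlap (4.09 ± 0.08 against 4.29 ± 0.10, SD, n = 4), a difference of -0.20 that was not called (adjusted p = 0.316). Aldh1b1 had means of 4.72 ± 0.06 in wild type beside 4.61 ± 0.04 (Vhl), 4.85 ± 0.12 (Pbrm1) and 4.69 ± 0.30 (double mutants). The wide spread of Aldh1b1 in double mutants came from replicate 2, at 5.13 where the other arrays of the group lay between 4.51 and 4.56. Pbrm1 mutant arrays lay above Vhl mutant arrays without overlap, by 0.23 (adjusted p = 0.352).

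Aldh1l1, the cytosolic folate enzyme, fell by a small and narrow margin in every mutant group. Its log2 values were 9.96, 9.83, 9.80 and 9.93 in wild type, 9.65, 9.66, 9.61 and 9.65 in Vhl mutants, 9.72, 9.68, 9.70 and 9.55 in Pbrm1 mutants, and 9.67, 9.61, 9.72 and 9.56 in double mutants. All 4 wild-type arrays lay above all 12 mutant arrays, and the mutant groups overlapped one another. Vhl mutants were 1.18-fold below wild type (-0.24 ± 0.06, adjusted p = 0.0203), Pbrm1 mutants 1.16-fold (-0.22 ± 0.06, adjusted p = 0.0317) and double mutants 1.18-fold (-0.24 ± 0.06, adjusted p = 0.0062). These 3 differences share the wild-type arrays and the strain label of the mutants, so genotype and strain cannot be told apart. The Vhl mutant call was lost without wild-type replicate 1 (adjusted p = 0.0769) or 4 (0.0573), without Vhl mutant replicate 3 (0.0599), or with only the groups compared (0.0505). The Pbrm1 mutant call was lost without wild-type replicate 1 (0.105) or 4 (0.0927), or without Pbrm1 mutant replicate 2 (0.0599) or 4 (0.112). It was also lost with arrays centred on their medians (0.0697). Neither single mutant was called with arrays averaged per description number (Vhl 0.176, Pbrm1 0.215) or without a variance trend (0.0824 and 0.114). Each of these calls was also lost without either pair of wild-type arrays, or of its own mutant arrays, sharing a number. The double mutant call was lost without wild-type replicates 1 and 2 (0.0533). Among the mutants, the differences of Aldh1l1 lay between -0.03 and 0.02.

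Aldh1l2, the mitochondrial counterpart, was highest in double mutants. Its log2 values were 4.64, 4.49, 4.46 and 4.61 there, 4.01, 4.02, 4.03 and 4.51 in wild type, 4.11, 4.54, 4.09 and 4.17 in Vhl mutants, and 3.80, 3.78, 4.25 and 4.10 in Pbrm1 mutants. Every double mutant array lay above every Pbrm1 mutant array, but wild-type replicate 4 and Vhl mutant replicate 2 reached the double mutant range. Double mutants (4.55 ± 0.09, SD, n = 4) were 1.48-fold above Pbrm1 mutants (3.98 ± 0.23), by 0.57 ± 0.15 (adjusted p = 0.0137). That call was lost without Pbrm1 mutant replicates 1 and 2 (adjusted p = 0.237) or double mutant replicates 1 to 3 (0.184). Against wild type the difference was 0.41 ± 0.15 (adjusted p = 0.0781), which was called without wild-type replicate 4 (0.53, adjusted p = 0.0167). Against Vhl mutants it was 0.32 ± 0.15 (adjusted p = 0.227). The nearest profiles were those of the kinase gene Mark1 (0.15), the lipid-binding protein gene Sec14l2 (0.16) and the Golgi mannosidase gene Man2a2 (0.16). Chosen for likeness over these same arrays, they stood 0.47, 0.41 and 0.36 above wild type in double mutants.

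Of 14 other aldehyde dehydrogenases, limma called 0 in Vhl mutants and 0 in Pbrm1 mutants against wild type, with 4 at an unadjusted p under 0.05 in each. In double mutants 1 rose and 3 fell, 28.6% of the 14 beside 12.2% of all genes. Aldh18a1, which makes the proline precursor pyrroline-5-carboxylate, rose by 0.49 (adjusted p = 0.00802). Aldh3a2, the fatty aldehyde dehydrogenase, fell by 0.42 (adjusted p = 0.000355), Aldh4a1 of proline breakdown by 0.22 (adjusted p = 0.0202) and Aldh8a1 by 0.19 (adjusted p = 0.0309). The list median was 0.0054 in Vhl, 0.034 in Pbrm1 and -0.067 in double mutants.

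Few of the genes that interconvert retinol and retinal, the substrate of Aldh1a1 and Aldh1a2, were called against wild type. Of 20 genes of retinol and retinal interconversion, 1 fell in Vhl mutants (Rdh5, a retinol dehydrogenase, by 0.44, adjusted p = 0.0146). In Pbrm1 mutants 1 rose (Rdh10, which oxidises retinol to retinal in the embryo, by 0.41, adjusted p = 0.0424), and in double mutants 1 rose (Rdh16, by 0.42, adjusted p = 0.00611). Each is 5.0% of the list, beside 3.84%, 4.04% and 12.2% of all genes. The medians of these 20 were -0.0097, 0.015 and -0.0032. Rdh10 had means of 8.57 in wild type beside 8.50 (Vhl), 8.98 (Pbrm1) and 8.92 (double mutants), and double mutants exceeded Vhl mutants by 0.42 (adjusted p = 0.0311).

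Of 11 measured genes for retinoid uptake, binding and storage, limma called 0 in either single mutant (2 in Vhl and 0 in Pbrm1 mutants at an unadjusted p under 0.05) and 3 in double mutants (27.3%, beside 12.2% of all genes). Stra6l, a relative of the retinol-binding protein receptor, rose by 0.65 (adjusted p = 0.00578) and Lrat, which esterifies retinol, by 0.43 (adjusted p = 0.0492). Retsat, a retinol saturase, fell by 0.38 (adjusted p = 0.026). Of 6 retinoic acid receptors, 1 was called in double mutants (16.7%, beside 12.2% of all genes). This was Rara, which rose by 0.38 (adjusted p = 0.0111). In the single mutants 0 receptors were called by limma, with 0 (Vhl) and 3 (Pbrm1) at an unadjusted p under 0.05. Of 12 measured genes that clear retinoic acid or respond to it, 0 were called by limma in single mutants, with 2 (Vhl) and 1 (Pbrm1) at an unadjusted p under 0.05, and 1, again Lrat, in double mutants (8.33%, beside 12.2%). Cyp26a1, a retinoic acid hydroxylase, lay between 2.96 and 3.59 over the 16 arrays, below 3.72. In Pbrm1 mutants, where Aldh1a1 was highest, the median of these 12 genes was -0.020, beside -0.0052 over all genes.

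Folate one-carbon genes, the setting of Aldh1l1 and Aldh1l2, moved in both directions in Pbrm1 and double mutants. Of 24 measured genes, limma called 0 in Vhl mutants (5 at an unadjusted p under 0.05), where 3.84% of all genes were called. In Pbrm1 mutants 3 were higher and 1 lower (16.7%, beside 4.04% of all genes), and in double mutants 4 were higher and 4 lower (33.3%, beside 12.2%). The medians were 0.0029, -0.012 and 0.0059. Shmt1, the cytosolic serine hydroxymethyltransferase, rose by 0.68 in double mutants (adjusted p = 1.12e-06) and by 0.25 in Pbrm1 mutants (adjusted p = 0.0431). The mitochondrial enzymes Mthfd1l and Mthfd2, which pass folate-bound carbon units towards formate, rose in double mutants by 0.78 (adjusted p = 0.00587) and 0.50 (adjusted p = 0.0235). Gldc, the glycine decarboxylase, fell by 0.77 there (adjusted p = 7.68e-05). Of the other 4 genes called there, 1 rose and 3 fell, each by less. In Pbrm1 mutants Shmt2 rose by 0.29 (adjusted p = 0.0216) and Ggh, which trims polyglutamate from folate, fell by 0.46 (adjusted p = 0.0121).

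**Figure D5:**
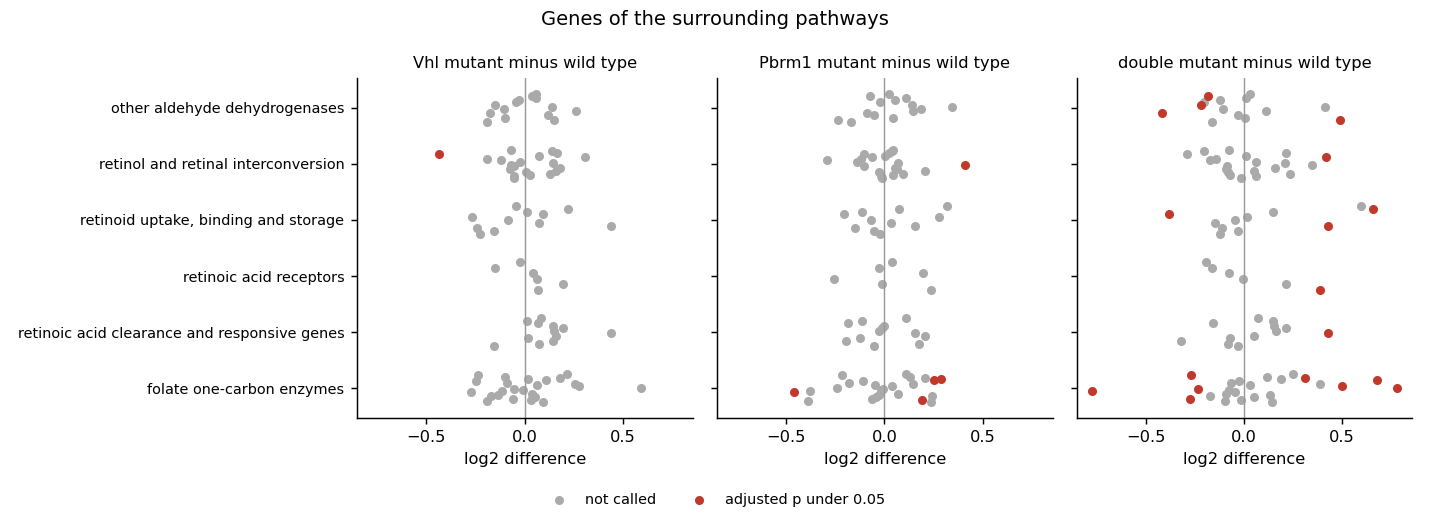
Log2 difference from wild type (x axis) of each measured gene in 6 lists around the Aldh1 family (rows), for Vhl, Pbrm1 and double mutants. Red points have a limma adjusted p under 0.05. Called genes are most frequent in double mutants, as they are over all genes (12.2% there, 3.84% in Vhl and 4.04% in Pbrm1 mutants), and 4 folate one-carbon genes rose and 4 fell there.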

How the data were processed

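The deposited table holds log2 expression for 41345 probe sets on 16 arrays, which the authors made by RMA; the submitters' processing notes name Affymetrix Expression Console 1.4. RMA corrects background and sets all arrays to a common distribution, which hides any shift common to most genes. RNA was extracted with Trizol, per the labels' protocols. Groups came from the sample titles. Of the probe sets, 23521 had 1 gene symbol; 1814 with several and 16010 not listed in the annotation were left out. For the 1082 genes with several probe sets the highest mean was used, which left 22180 genes, with no filter on level. The 7 members matched RefSeq by Entrez ID. Promoter sequences are RefSeq's (GRCm38.p6).

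Linear modelling used limma 3.58.1 under R 4.3.3: 4 groups as fixed effects, the description number as a random block (estimated correlation 0.0838), a variance prior following mean expression (prior degrees of freedom 7.73, residual 12) and Benjamini-Hochberg adjustment over all genes. Folds are those of the model, in which double mutant replicate 4 counts for more, so they depart slightly from differences of group means. Named were all members, up to 4 called genes per list and comparison, the genes of nearest profile, the chromosomal neighbours and both deleted genes. The members and lists were chosen with earlier results of these data known. A gene whose mean lay below 3.72 in both groups is given as a level only. The fit was tested on simulated data. Alternatives covered the block, filter, centring, normalization, variance prior, probe set rule, samples fitted and each array or number left out. Python 3.11.15, pandas 2.3.3, numpy 2.4.6, Biopython 1.88 and matplotlib 3.10.9 made the tables and figures.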

Additional observations from a re-analysis of the deposited data

Results flagged for a closer look

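Of 28 sets of 4 arrays (7 members in 4 groups), 3 held an array far from the others, its gap to the nearest divided by the range of the group exceeding Dixon's critical value of 0.829; chance alone gives about 1 in 20. Aldh1l2 in wild-type replicate 4 was high, at a log2 value of 4.51 (gap share 0.975), and its double mutant difference was called without that array. Aldh1b1 in double mutant replicate 2 was high, at 5.13 (0.918). Aldh1b1 in Pbrm1 mutant replicate 2 was low, at 4.67 (0.901). Aldh1b1 was not called in any comparison with or without these arrays.

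For Aldh1a1 the double mutant effect differed from both single effects added together, by -2.28 on the log2 scale (interaction tested with limma in the report). Wild-type arrays enter the interaction, so genotype and strain cannot be told apart in it. For Aldh1a7 the same difference was -2.18, and no test of it is given because its rise in Pbrm1 mutants was known beforehand. In both genes the 4 Pbrm1 mutant arrays lay above all arrays of the other groups.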

How the results depend on the processing

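Of 1708 member values recomputed under 35 alternatives, 1651 stayed on the same side of the threshold, 41 lost and 16 gained a call, and 0 called values reversed. Among the 1651, 31 values of 12 uncalled differences, each at most 0.16 in size as reported, changed sign. Aldh1a1 kept its calls in Pbrm1 mutants against wild type (1.92 to 2.29), double against Pbrm1 mutants, Pbrm1 against Vhl mutants and the interaction (-2.61 to -2.10) in every alternative run; Aldh1a7 stayed between 1.70 and 2.84 in Pbrm1 mutants against wild type. Counts here are over all 7 members. Of members called in Vhl mutants against wild type (2), the number was 0 with arrays averaged per description number, without a variance trend, without wild-type replicates 3 and 4, or without either pair of Vhl mutant arrays sharing a number. It was 1 with only the groups compared or without wild-type replicates 1 and 2. In double mutants against wild type (3) it was 1 without double mutant replicates 1 to 3, where Aldh1a2 stood at 0.62 (adjusted p = 0.146). Leaving out 1 array at a time gave 0 to 3 members in Vhl, 2 to 3 in Pbrm1 and 3 to 4 in double mutants against wild type. It gave an unchanged 0 (double against Vhl), 4 (double against Pbrm1), 3 (Pbrm1 against Vhl) and 2 (interaction). The counts that involve Pbrm1 mutants include Aldh1a7, which was known beforehand to rise there. Without Aldh1a7, the main fit called 2 members in Pbrm1 mutants and 2 in double mutants against wild type. It called 3, 2 and 1 in the last 3 comparisons.

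Called genes over the whole table fell when arrays were averaged per number, from 851 to 246 in Vhl mutants, from 895 to 274 in Pbrm1 mutants, from 2706 to 1729 in double mutants and from 583 to 99 in the interaction. Replicate numbers do not pair the groups: deviations of same-numbered arrays correlated between -0.07 and 0.06, with 0 of 24 pairs over 0.1. With the replicate block in place of the description number, Aldh1a1 was called in double mutants against wild type (0.48, adjusted p = 0.0208) and Aldh1a7 in Vhl mutants (0.76, adjusted p = 0.0226). Giving double mutant replicate 3 the number of replicate 4, an alternative added after seeing the data, raised the estimated correlation to 0.14 and made Aldh1a1 called in double mutants (adjusted p = 0.0493). The causes were not tested.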

Other observations

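Between double and Pbrm1 mutants, which share the strain label, 4 of 24 folate one-carbon genes were higher and 5 lower in double mutants (37.5%, beside 10.2% of all genes). Mthfd1l stood 1.02 and Mthfd2 0.46 higher on the log2 scale (limma adjusted p = 0.000552 and 0.043), as Aldh1l2 did. Ftcd, which links histidine breakdown to folate, stood 0.42 lower (adjusted p = 0.0238). Ggh was the 1 folate gene called in the interaction, at 0.69 (adjusted p = 0.0129). Of the retinoic acid receptors, Rxra was 0.28 lower in double than in Pbrm1 mutants (adjusted p = 0.00615).

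A pair of cytochrome P450 genes with opposite sex bias in mouse kidney moved in opposite directions in the single mutants. Cyp4a12a had a wild-type mean of 6.54, beside 4.20 (Vhl), 7.82 (Pbrm1) and 7.18 (double mutants). Cyp4a14 had means of 7.76, 9.54, 6.21 and 7.41 in the same order. It is 1 of 3 measured kidney genes that are higher in females, and the others did not share its pattern. Slc7a12 had means of 8.21, 9.21, 8.98 and 10.17, and Cyp2a4 of 9.60, 9.60, 9.59 and 9.80.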
